A study of Mus musculus with 18 samples.

Results

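The genes described here are the 10 core genes of polyamine synthesis, its regulation and polyamine breakdown: Odc1, Oaz1, Oaz2, Azin1, Amd1, Srm, Sms, Sat1, Smox and Paox. They were taken by their symbols in the GENCODE M21 annotation, and all 10 were found among the 56748 gene IDs of the count files. They were selected on a measured value, the higher level of Odc1 in HFD than in SW. The values of that comparison are therefore given as a description, and no test of it is read as a result. The RNA-seq libraries, 18 in all and 6 for each of 3 diets, were made from poly-A RNA of splenic CD8 T cells of wild-type (WT) mice. SW mice spent 6 weeks on a high fat diet before a switch to normal diet for another 6 weeks. HFD mice were fed the high fat diet for 12 weeks, and ND mice the normal diet for 12 weeks. The cells were sorted and freshly isolated, the labels used here give no age, and what the replicate numbers 1 to 6 mark was not stated.

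Polyamines (putrescine, spermidine and spermine) are small positively charged molecules that bind nucleic acids and that dividing cells need. Ornithine decarboxylase, encoded by Odc1, makes putrescine from ornithine and limits the rate of the pathway, and S-adenosylmethionine decarboxylase, encoded by Amd1, makes the aminopropyl donor with which Srm and Sms build spermidine and spermine. Antizymes (Oaz1, Oaz2) bind ornithine decarboxylase and send it to the proteasome, and Azin1 encodes an inactive relative of that enzyme that draws antizyme away. Sat1 acetylates spermidine and spermine for export or oxidation, Paox oxidises the acetylated forms, and Smox oxidises spermine directly. Resting T cells keep this pathway low and induce it on activation. Much of its control acts on translation and on protein breakdown, which RNA levels do not show.

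The libraries held 11947339 to 16398340 counts, with a median of 14119307.5. CD8 T cell markers had summed levels of 6216 to 6586 CPM in SW, 6096 to 6839 CPM in HFD and 6170 to 6726 CPM in ND, where CPM is the count scaled to a common library size after TMM normalisation of the library sizes. The library HFD 4 stood apart from the others on the first principal component (13.4% of the variance), at 55.0 against -8.83 to 6.31 for the other 17. Its erythroid markers summed to 336.9 CPM. The erythroid sums had medians of 40.8 CPM in SW, 84.0 CPM in HFD and 36.6 CPM in ND, and all 6 tested erythroid markers had positive fold changes in HFD against ND. Of these 6, edgeR called 0 and DESeq2 5, where they called 222 and 444 of all genes. All 6 had an unadjusted p under 0.05 in edgeR, as had 14.9% of all genes. The 9 B cell markers summed to 949 to 1262 CPM in SW, 1209 to 1840 CPM in HFD and 807 to 1359 CPM in ND, and all 7 tested had positive fold changes in HFD against ND, with a median of 0.29. Of these, Ighm was called. Cd74 averaged 385 CPM in SW, 526 CPM in HFD and 361 CPM in ND, and the transcription factor gene Ebf1 did not go above 0.39 CPM in any library. The 10 markers of monocytes, macrophages and neutrophils summed to 25.7 to 43.3 CPM in SW, 38.7 to 54.6 CPM in HFD and 28.9 to 41.3 CPM in ND. Of 9 tested, 8 had positive fold changes in HFD against ND, with a median of 0.80. In edgeR, 5 of these 9 had an unadjusted p under 0.05, beside 14.9% of all genes, and 0 were called. DESeq2 called 1, Lyz2. The summed medians in SW, HFD and ND were 16.4, 22.1 and 14.9 CPM for 6 markers of CD4 T cells. They were 23.0, 33.7 and 18.5 CPM for 5 of natural killer cells, and 36.9, 41.9 and 35.0 CPM for 4 of plasma cells. Of the 6 CD4 markers, 4 had positive fold changes in HFD against ND, and only Ctla4 was called (higher). Zbtb7b averaged 6.30 CPM in HFD and 7.22 CPM in ND, and Cd4 itself reached at most 1.32 CPM. Of 4 tested natural killer markers, 3 had positive fold changes in HFD against ND. Gzma averaged 25.2 CPM in HFD and 7.63 CPM in ND, and Klrb1c 1.90 CPM in HFD and 2.37 CPM in ND. Ncr1, not tested, averaged 0.153 CPM in HFD and 0.564 CPM in ND. Tyrobp is also among the monocyte, macrophage and neutrophil markers. In HFD against ND, DESeq2 called Gzma of the natural killer markers and Jchain of the plasma cell markers. Jchain averaged 9.24 CPM in HFD and 3.04 CPM in ND. Most of the plasma cell sum was Xbp1, at 34.8 CPM in HFD and 33.3 CPM in ND. Mzb1 and Sdc1 reached at most 0.19 and 0.91 CPM. The part of these other cells in the results below was not tested.

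The 10 genes differed widely in level, with Oaz1 at the top and Paox at the bottom. In FPKM, which is scaled by gene length and so allows levels of different genes to be set side by side, Oaz1 averaged 185 ± 12.3 over the 18 libraries (SD). It lay above every other member in all 18. Sat1 averaged 42.2 ± 4.81 FPKM and Srm 40.0 ± 2.43 FPKM, and their order was not fixed, since Sat1 was above Srm in 10 of 18 libraries. Odc1 followed at 20.4 ± 2.61 FPKM, below Srm and above Amd1 in all 18. Amd1 averaged 14.8 ± 2.30 FPKM, Sms 13.6 ± 0.924 FPKM, Azin1 11.9 ± 1.17 FPKM and Oaz2 9.60 ± 0.954 FPKM. The ranges of these neighbours overlapped, with Amd1 above Sms in 12 of 18 libraries, Sms above Azin1 in 16 and Azin1 above Oaz2 in 17. The oxidases were lowest, Smox at 2.64 ± 0.372 FPKM and Paox at 1.61 ± 0.281 FPKM. The least abundant, Paox, still had 73 to 141 counts per library, and all 10 members passed the filter on low counts in the diet tests. Sms shares sequence with the pseudogene Sms-ps, which had 240 to 362 counts per library, 20.7% of the 2 together, so the level of Sms is uncertain. Amd2, a near copy of Amd1, took 3.16% of their joint counts. Paox overlaps Echs1 on the other strand over 678 bases, and Odc1 contains a small nucleolar RNA gene (Gm22748) with 1 to 39 counts, so reads of these pairs may be mixed.

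**Figure D1:**
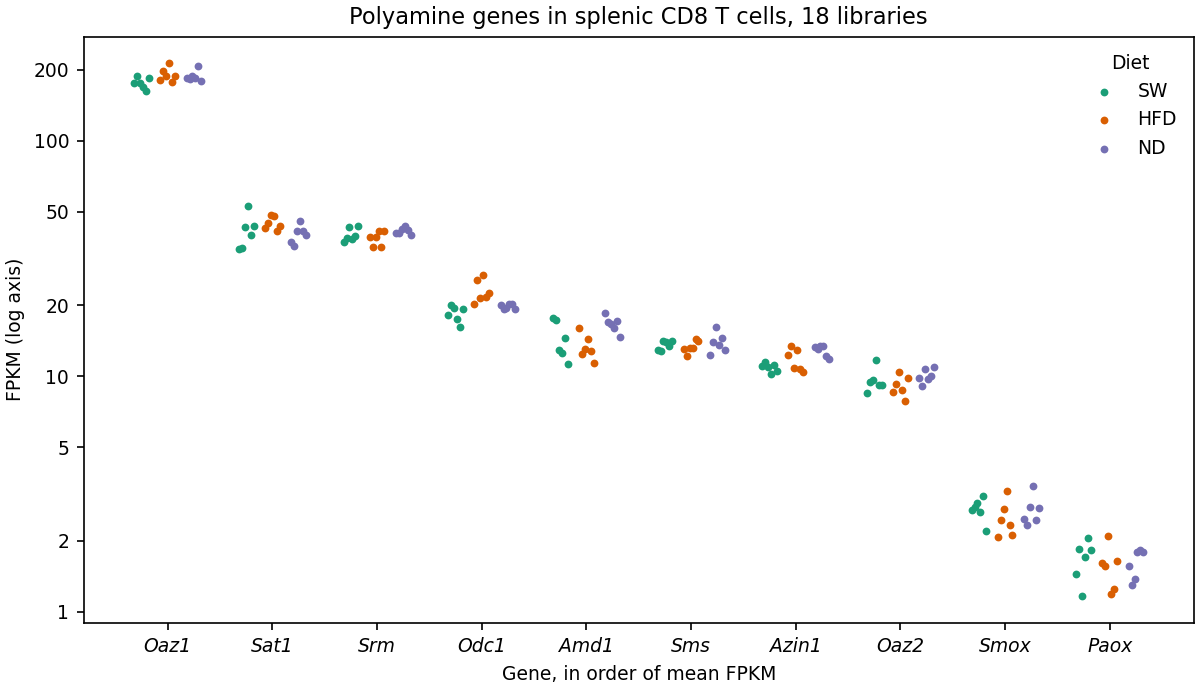
FPKM (log axis) of the 10 polyamine genes, ordered by their mean, with 1 point for each of the 6 SW, 6 HFD and 6 ND libraries. Oaz1 (185 FPKM on average) lies far above Paox (1.61 FPKM), and the diets differ little beside the differences between genes.

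The effect of a lasting high fat diet on these genes was read from HFD against ND. No polyamine gene passed the test: the edgeR quasi-likelihood test called 0 of 10 members at a Benjamini-Hochberg adjusted p under 0.05, where 1.62% of all 13690 genes tested were called (222 genes). Unadjusted p was under 0.05 for 3 members, Odc1, Amd1 and Azin1, and for 14.9% of all genes. Odc1 was chosen for its HFD and SW values, so its p is no independent support. DESeq2 called 1 member, Amd1, where it called 444 of all genes. The median log2 fold change of the members was -0.09, beside 0.01 for all genes, with 3 members above 0 and 7 below. No member had HFD and ND groups that did not overlap, where 1.67% of all genes did. In libraries of mixed RNA from many cells, fewer cells of a type and less RNA per cell cannot be told apart.

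The difference from ND after the return to normal diet was read from SW against ND. No libraries were made at the switch, so what was present then is not known. Again 0 of 10 members were called, with 0.0146% of all genes (2 genes). Unadjusted p was under 0.05 for 2 members, Azin1 and Amd1, and for 6.81% of all genes. DESeq2 called 0 members, where it called 48 of all genes. The median log2 fold change of the members was -0.06, beside 0.00 for all genes, with 3 above 0 and 7 below. Both comparisons use the same ND libraries, and each shares libraries with the SW and HFD comparison that chose the genes. In SW against HFD, 1 of 10 members, Odc1, was called beside 0.124% of all genes. The choice of the group rested on this call, and nothing is read from it.

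**Figure D2:**
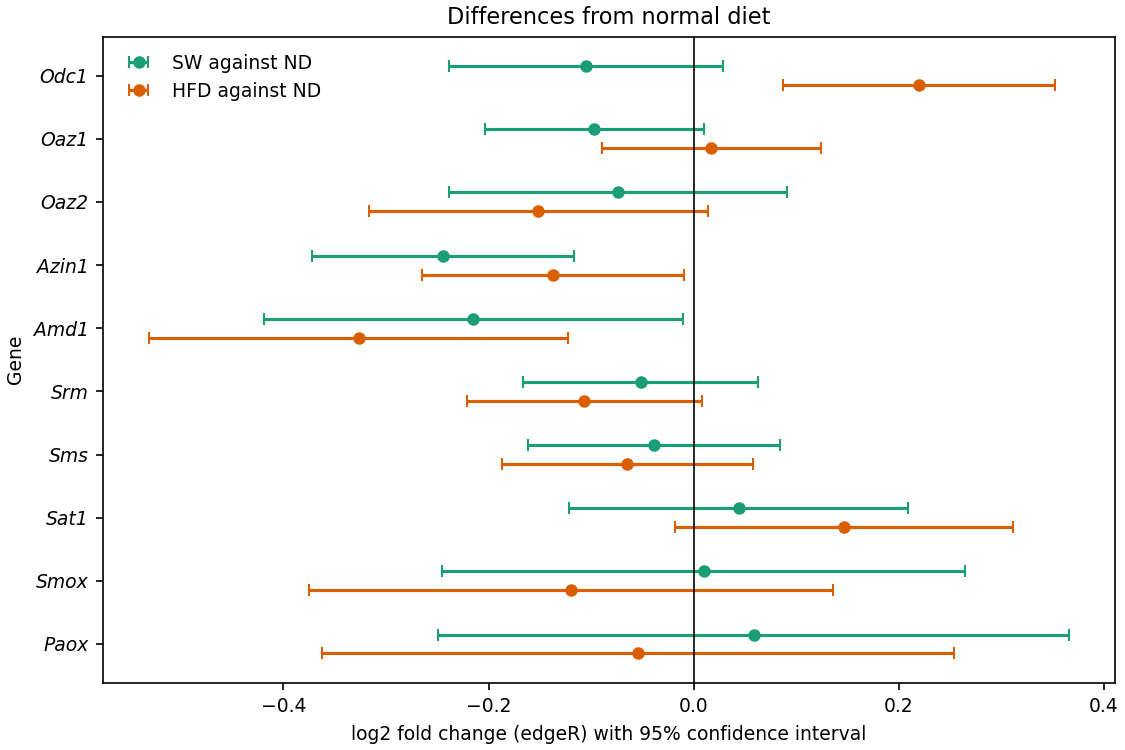
Log2 fold changes of the 10 polyamine genes in SW against ND and in HFD against ND, with 95% confidence intervals from edgeR. Odc1 and Amd1 have HFD intervals that do not reach 0, on opposite sides, and Azin1 and Amd1 have intervals below 0 for both diets. None of them passed after adjustment over 13690 genes. Odc1 was chosen for its HFD and SW values, so its intervals are a description.

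Odc1 (ENSMUSG00000011179; chromosome 12, 17544794 to 17551505, plus strand, GRCm38) was higher in every HFD library than in every SW library. Its level ran from 53.9 CPM over a median of 61.3 to 66.0 CPM in SW, from 66.5 over 72.8 to 89.0 CPM in HFD, and from 63.8 over 65.2 to 66.8 CPM in ND. The SW and HFD ranges do not overlap, as for 0.409% of all genes in this direction, but they lie close, the highest SW library just under the lowest HFD library. The ND libraries are packed in a narrow band where the SW and HFD ranges meet. In counts, Odc1 had 691 to 999 in SW, 965 to 1364 in HFD and 784 to 1050 in ND. The log2 fold change in SW against HFD was -0.32 ± 0.06 (SE), and it was -0.27 without HFD 4, the library with the highest Odc1.

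Against ND, HFD and SW placed Odc1 on opposite sides of the ND level. In HFD, Odc1 had a log2 fold change of 0.22 ± 0.06 (SE; 95% interval 0.09 to 0.35; adjusted p = 0.0801), with 6 of 6 HFD libraries above the ND mean. Only HFD 1 fell within the ND range. In SW, Odc1 had a log2 fold change of -0.10 ± 0.07 (95% interval -0.24 to 0.03; adjusted p = 0.849), with 5 of 6 SW libraries below the ND mean. Neither difference passed the test. The HFD value was 0.21 within replicates 3 to 6 alone and 0.22 within replicates 1 and 2 alone. With these replicate sets as a factor its adjusted p was 0.0356, and without HFD 1 it was 0.0355, with a log2 fold change of 0.25. Odc1 was chosen for these same HFD and SW values, which favours opposite sides of ND. The p-values of Odc1 against ND are therefore no independent support. Without HFD 4 the log2 fold change was 0.17 (adjusted p = 0.183). HFD 4 had both the highest Odc1 and the highest erythroid sum. HFD 1 had the next highest erythroid sum (160.7 CPM) and the lowest Odc1 of the HFD libraries. The part of the erythroid RNA in these values was not tested.

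**Figure D3:**
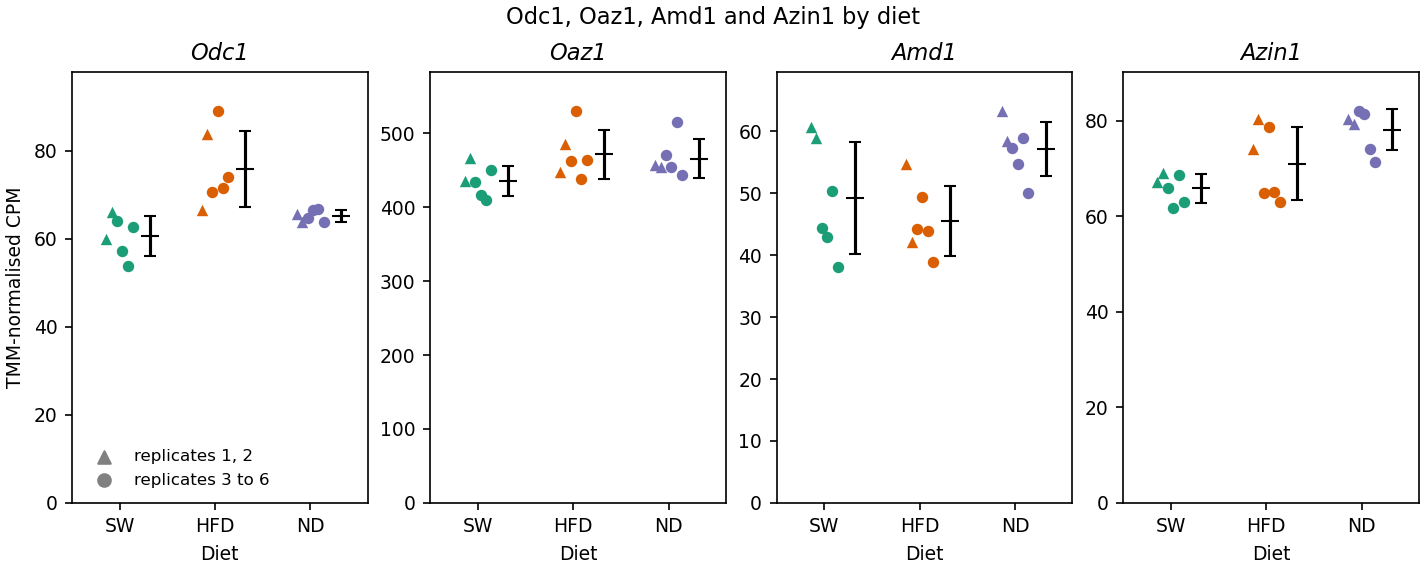
TMM-normalised CPM of Odc1, Oaz1, Amd1 and Azin1 in SW, HFD and ND, with 1 point per library (triangles for replicates 1 and 2, circles for 3 to 6) and the mean ± SD of 6 libraries beside them. The HFD mean is the highest for Odc1 and the lowest for Amd1, and all SW libraries lie under the ND range for Azin1.

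Neither antizyme gene passed the test against ND in HFD or in SW. Antizyme is made only when ribosomes slip into the +1 frame at a short site, a step that polyamines favour, and the stretch around that site is shown because it is what the antizyme messages share. The capitals mark the frameshift site with the TGA stop codon of the first reading frame, in GENCODE M21 transcripts (GRCm38) of Oaz1 on chromosome 10 and Oaz2 on chromosome 9, both on the plus strand.
Oaz1: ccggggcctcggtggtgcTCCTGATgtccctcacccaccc
Oaz2: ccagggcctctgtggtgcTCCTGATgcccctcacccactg
Of these 40 bases, 35 are identical. Oaz1 (ENSMUSG00000035242; chromosome 10, 80826656 to 80829290) ran from 410 over 435 to 466 CPM in SW, from 438 over 464 to 530 CPM in HFD and from 444 over 456 to 516 CPM in ND. All 3 ranges overlap. The log2 fold change of Oaz1 was 0.02 ± 0.05 in HFD against ND (95% interval -0.09 to 0.12; adjusted p = 0.920), and its sign turned (-0.0048) when libraries were scaled by their totals alone. In SW against ND it was -0.10 ± 0.05 (95% interval -0.20 to 0.01; adjusted p = 0.786), with 5 of 6 SW libraries below the ND mean.

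Oaz2 (ENSMUSG00000040652; chromosome 9, 65668001 to 65690300), an antizyme of lower abundance, ran from 24.6 over 27.0 to 33.8 CPM in SW, from 22.7 over 26.0 to 30.1 CPM in HFD and from 26.4 over 28.7 to 31.6 CPM in ND. The ranges overlap, and the mean was lowest in HFD. Its log2 fold change was -0.15 ± 0.08 in HFD against ND (95% interval -0.32 to 0.01; adjusted p = 0.388) and -0.07 ± 0.08 in SW against ND (95% interval -0.24 to 0.09; adjusted p = 0.966). In SW against HFD, Oaz1 had a log2 fold change of -0.11 and Oaz2 of 0.08, given as a description.

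Azin1 (ENSMUSG00000037458; chromosome 15, 38487427 to 38519266, minus strand), the antizyme inhibitor, was lower in every SW library than in every ND library. It ran from 61.7 over 66.5 to 69.0 CPM in SW, from 63.1 over 69.5 to 80.4 CPM in HFD and from 71.5 over 79.9 to 82.0 CPM in ND. The SW range lies wholly below the ND range, and the HFD range spans most of both. Groups that do not overlap, in this direction, were found for 0.416% of all genes in SW against ND. The log2 fold change of Azin1 in SW against ND was -0.24 ± 0.06 (95% interval -0.37 to -0.12), yet its adjusted p was 0.170. It was -0.25 within replicates 3 to 6 alone and -0.23 within replicates 1 and 2 alone. With the replicate sets as a factor its adjusted p was 0.0537. In HFD against ND the log2 fold change was -0.14 ± 0.06 (95% interval -0.26 to -0.01; adjusted p = 0.295), with 4 of 6 HFD libraries below the ND mean. HFD 2 and HFD 4, which had the highest Odc1, also had the highest Azin1 among the HFD libraries.

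Amd1 (ENSMUSG00000075232; chromosome 10, 40287458 to 40302186, minus strand), whose enzyme commits S-adenosylmethionine to the pathway, had the largest fold change of the members in HFD against ND. It ran from 38.1 over 47.4 to 60.7 CPM in SW, from 38.9 over 44.1 to 54.7 CPM in HFD and from 50.1 over 57.9 to 63.2 CPM in ND. All HFD libraries lie below the ND mean and 5 of 6 below the lowest ND library, the exception being HFD 1. The log2 fold change in HFD against ND was -0.33 ± 0.10 (95% interval -0.53 to -0.12; adjusted p = 0.0943). It was -0.33 within replicates 3 to 6 alone (adjusted p = 0.0363) and -0.32 within replicates 1 and 2 alone (adjusted p = 0.449). Its adjusted p was 0.0140 with the replicate sets as a factor and 0.0314 without HFD 1, with a log2 fold change of -0.39. DESeq2 gave an adjusted p of 0.0474. Without HFD 4 the log2 fold change was -0.35 (adjusted p = 0.101).

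In SW, Amd1 was uneven. SW 1 and SW 2 had 60.7 and 58.9 CPM, within the ND range. Replicates 3 to 6 had 38.1 to 50.3 CPM, of which only SW 5, the highest, reached the lowest ND library (50.1 CPM). The log2 fold change in SW against ND was -0.21 ± 0.10 (95% interval -0.42 to -0.01; adjusted p = 0.702), at -0.33 within replicates 3 to 6 alone and -0.03 within replicates 1 and 2 alone. The values within sets thus differ more for SW than for HFD, and that difference was not tested. In SW against HFD the log2 fold change of Amd1 was 0.11.

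Neither synthase gene passed the test in HFD or in SW against ND. Srm (ENSMUSG00000006442; chromosome 4, 148591503 to 148594993), spermidine synthase, averaged 61.8 ± 3.89 CPM in SW, 59.5 ± 4.31 CPM in HFD and 64.0 ± 1.89 CPM in ND (SD, n = 6 each). Its log2 fold change was -0.11 ± 0.06 in HFD against ND (95% interval -0.22 to 0.01; adjusted p = 0.382) and -0.05 ± 0.06 in SW against ND (95% interval -0.17 to 0.06; adjusted p = 0.963). Sms (ENSMUSG00000071708; chromosome X, 157443855 to 157492287), spermine synthase, averaged 78.8 ± 3.31 CPM in SW, 77.4 ± 4.84 CPM in HFD and 81.0 ± 7.86 CPM in ND. The ranges of all 3 diets overlap for both genes. The log2 fold change of Sms was -0.06 ± 0.06 in HFD against ND (95% interval -0.19 to 0.06; adjusted p = 0.663) and -0.04 ± 0.06 in SW against ND (95% interval -0.16 to 0.08; adjusted p = 0.994).

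Among the genes of breakdown, Sat1 (ENSMUSG00000025283; chromosome X, 155213132 to 155216449) had the largest positive fold change in HFD against ND. Sat1 encodes spermidine/spermine acetyltransferase, the inducible step of breakdown. It ran from 93.7 over 112 to 141 CPM in SW, from 111 over 118 to 129 CPM in HFD and from 95.9 over 109 to 122 CPM in ND. The SW libraries spread the widest and cover the whole HFD and ND ranges. In HFD against ND the log2 fold change was 0.15 ± 0.08 (95% interval -0.02 to 0.31; adjusted p = 0.401), with 6 of 6 HFD libraries above the ND mean. It was 0.09 within replicates 3 to 6 alone and 0.26 within replicates 1 and 2 alone. In SW against ND it was 0.04 ± 0.08 (95% interval -0.12 to 0.21; adjusted p = 0.994).

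The oxidases showed no difference that the test could resolve. Smox (ENSMUSG00000027333; chromosome 2, 131491496 to 131525922), spermine oxidase, averaged 10.3 ± 1.21 CPM in SW, 9.37 ± 1.67 CPM in HFD and 10.2 ± 1.45 CPM in ND. Its log2 fold change was -0.12 ± 0.12 in HFD against ND (95% interval -0.38 to 0.14; adjusted p = 0.706) and 0.01 ± 0.12 in SW against ND (95% interval -0.25 to 0.26; adjusted p = 0.999). Paox (ENSMUSG00000025464; chromosome 7, 140115799 to 140137224), which oxidises acetylated polyamines, averaged 7.94 ± 1.54 CPM in SW, 7.37 ± 1.51 CPM in HFD and 7.64 ± 1.08 CPM in ND. Its log2 fold change was -0.05 ± 0.15 in HFD against ND (95% interval -0.36 to 0.25; adjusted p = 0.910) and 0.06 ± 0.15 in SW against ND (95% interval -0.25 to 0.37; adjusted p = 0.996). At these counts their intervals are 2 to 3 times as wide as those of Oaz1.

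The signs of the HFD fold changes were the same within replicates 3 to 6 and within replicates 1 and 2 for 8 of 10 members, the exceptions being Oaz1 and Paox. For SW against ND they were the same for 7 of 10, the exceptions being Sat1, Smox and Paox. The share of all genes with the same sign in both sets was not computed, so nothing is read from these counts.

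Within diets, Odc1 and Oaz1 moved together from library to library. Since the diet difference chose Odc1, the mean of each diet was subtracted from log2 CPM before the comparison, and Odc1 was set against each of the other 9 members with permutations within diets (100000 draws, two-sided). Pearson's r of Odc1 and Oaz1 was 0.81 over 18 libraries (adjusted p over the 9 pairs = 0.0009) and Spearman's rho was 0.83 (adjusted p = 0.0017). HFD 4 was the highest of its diet for both genes. With the mean of each replicate set within a diet subtracted, r was 0.80 (adjusted p = 0.0103), and within replicates 3 to 6 alone it was 0.79 (n = 12; permutation adjusted p = 0.0441). Without HFD 4 and HFD 2, the libraries farthest from the median of Odc1, r was 0.66 (n = 16; adjusted p = 0.0280). The rank correlation did not pass in these last 2 settings, with rho of 0.79 (permutation adjusted p = 0.0614) and 0.69 (adjusted p = 0.0874). Both values of a pair come from the same library, so they share its depth and normalisation. Genes outside the pathway came close to this r with diet means subtracted, among them Capn1 (0.79), Cdc37 (0.77) and Krr1 (-0.79). The share of all genes with such an r was not computed, so the correlation is not shown to be particular to Oaz1. None of the other 8 members passed, with Azin1 at r = 0.45 (adjusted p = 0.600) and Paox at r = -0.37 (adjusted p = 0.600). Within replicates 3 to 6 alone, Srm had r = 0.70 (n = 12; permutation adjusted p = 0.264) and a rho of 0.80 (adjusted p = 0.0835), and it was at r = 0.21 over all 18 libraries (adjusted p = 0.795).

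**Figure D4:**
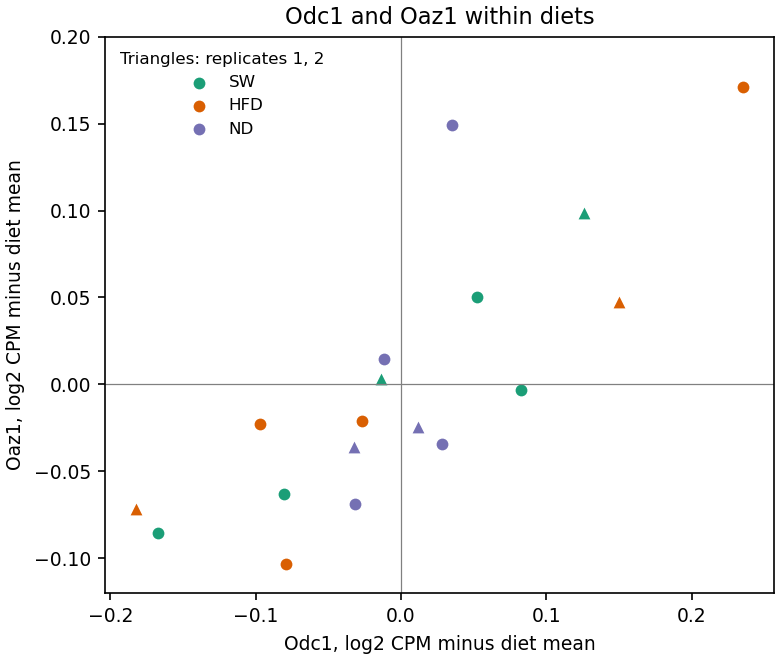
Log2 CPM of Oaz1 against Odc1 after subtraction of each diet's mean, with 1 point per library (SW, HFD, ND; triangles are replicates 1 and 2). The points rise together (r = 0.81 over 18 libraries), with HFD 4 at the upper right.

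The promoters of Odc1 and Oaz1 are shown because these genes moved together within diets. Each runs from 250 bases before to 50 bases after the start, in RefSeq on GRCm38.p6, with matches to the GC box letters GGGCGG or their reverse complement CCGCCC in capitals. The Odc1 window is chr12:17544623-17544922 and the Oaz1 window chr10:80826406-80826705, both on the plus strand.
Odc1: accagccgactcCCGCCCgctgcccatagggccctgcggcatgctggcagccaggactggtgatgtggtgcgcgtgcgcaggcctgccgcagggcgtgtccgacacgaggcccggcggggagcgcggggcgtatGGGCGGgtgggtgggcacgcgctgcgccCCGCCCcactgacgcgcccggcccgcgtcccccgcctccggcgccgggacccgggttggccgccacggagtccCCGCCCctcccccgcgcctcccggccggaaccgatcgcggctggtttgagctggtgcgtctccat
Oaz1: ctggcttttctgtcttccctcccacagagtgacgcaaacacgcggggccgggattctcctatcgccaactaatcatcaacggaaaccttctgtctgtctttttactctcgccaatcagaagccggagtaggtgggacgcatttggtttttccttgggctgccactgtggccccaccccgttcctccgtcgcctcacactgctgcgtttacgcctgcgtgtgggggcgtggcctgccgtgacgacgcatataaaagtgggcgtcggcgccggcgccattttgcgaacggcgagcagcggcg
The Odc1 window holds 4 GC boxes and the Oaz1 window 0, where 35.7% of 32851 promoter windows hold at least 1 on either strand. Neither window holds the E-box letters CACGTG, which 7.15% of the windows hold, and the rest of each gene was not searched. Windows were found for 8 of the 10 members, and Srm and Azin1 had none in the table. Matches to letters are a description and do not show that a factor binds.

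The genes most like Odc1 over the 18 libraries were taken by Pearson's r of log2 CPM among 8610 named genes of at least 10 CPM on average, as a description. Highest were Cdc37 (r = 0.89), a kinase co-chaperone, Nptn (0.86), a cell adhesion molecule, Capn1 (0.86), a calcium-dependent protease, Rpn2 (0.83), a subunit of the oligosaccharyltransferase, and Rab8a (0.83), a small GTPase of vesicle traffic. With diet means subtracted, r was 0.77 for Cdc37, 0.66 for Nptn, 0.79 for Capn1, 0.58 for Rpn2 and 0.66 for Rab8a. Lowest were Brat1 (r = -0.87), Luc7l3 (-0.85), a splicing factor, and Krr1 (-0.83), of ribosome assembly. Oaz1 ranked 22 of the 8609 genes compared with Odc1, at r = 0.78, while Amd1 was at -0.24 and Srm at -0.15. Cdc37, the closest, averaged 283 CPM in SW, 305 CPM in HFD and 289 CPM in ND, and so had the same order of diets as Odc1. Diet means were not removed for the ranking. The diet difference that chose Odc1 thus enters these ranks, that of Oaz1 included, and favours a shared order of diets.

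Among other genes of the wider pathway, Mat2a, which makes S-adenosylmethionine, the substrate of the Amd1 enzyme, fell in HFD. It was the 1 gene called (lower; 0.957% of all genes were) among the 14 tested of 18 listed for precursor supply and salvage, and the list's median log2 fold change in HFD against ND was 0.00, with 8 of 14 above 0. Mat2a (ENSMUSG00000053907; chromosome 6, 72432799 to 72439558) ran from 153 over 177 to 251 CPM in SW, from 143 over 160 to 188 CPM in HFD and from 182 over 215 to 243 CPM in ND. The HFD and ND ranges overlap only narrowly, and the SW range covers the ND range and most of the HFD range. Its log2 fold change in HFD against ND was -0.40 ± 0.10 (adjusted p = 0.0436), with 6 of 6 HFD libraries below the ND mean. It was -0.31 within replicates 3 to 6 alone (adjusted p = 0.0368) and -0.58 within replicates 1 and 2 alone (adjusted p = 0.212), and it was called in 6 of 18 fits that left out a library. In SW against ND it was -0.23 ± 0.10 (adjusted p = 0.676). Mat2b, the regulatory partner of Mat2a, had a log2 fold change of 0.13 ± 0.04 in HFD (adjusted p = 0.120, and 0.0236 with DESeq2), with all HFD libraries above all ND libraries (136 to 148 CPM in HFD, 126 to 132 CPM in ND). Groups that do not overlap in that direction were found for 0.672% of all genes.

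No gene of the other lists of the pathway was called in HFD or in SW against ND, by edgeR or by DESeq2. Of their 12 tested genes, 2 in each comparison had an unadjusted p under 0.05. Among all genes, 14.9% had such a p in HFD against ND and 6.81% in SW against ND. Of 8 further genes of synthesis, antizyme function and breakdown, 2 were tested, and Aldh9a1, an aldehyde dehydrogenase that acts on breakdown products, had a log2 fold change of 0.14 ± 0.06 in HFD (adjusted p = 0.267). The tissue-restricted antizyme Oaz3 and the second antizyme inhibitor Azin2 were at 0.520 and 0.0777 CPM on average and were not tested. Of 16 transport genes 6 were tested, with a median of 0.04 in HFD against ND and -0.09 in SW against ND. The amino acid transporter gene Slc7a6 had the smallest p of them, at -0.16 ± 0.05 in HFD (adjusted p = 0.155). Dhps and Dohh make the spermidine-derived residue hypusine on the translation factor encoded by Eif5a and Eif5a2, and these 4 genes had a median of -0.02 in HFD and -0.05 in SW. Among them, Eif5a averaged 487 ± 14.6 CPM in SW, 506 ± 26.5 CPM in HFD and 516 ± 16.0 CPM in ND, with a log2 fold change of -0.03 ± 0.04 in HFD (adjusted p = 0.810) and -0.08 ± 0.04 in SW (adjusted p = 0.786).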

How the data were processed

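Per the labels' protocols, RNA of freshly isolated splenic CD8 T cells was poly-A selected and copied with random hexamers. The submitters' processing notes name fastp and the builds GRCm38 and mm10. Aligner, counter, annotation and strand handling were not given in the sources used here. Per library, the authors deposited raw counts per gene and FPKM values. For 9534 genes with more than 50 counts in every library, the deposited FPKM equalled the count times a gene and a library factor. Of 56748 IDs, 52125 matched GENCODE M21.

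The counts entered a robust quasi-likelihood fit in edgeR 4.0.16 under R 4.3.3, after filterByExpr and TMM, with diet as the factor and all 18 libraries in 1 fit of 13690 genes, and Benjamini-Hochberg adjustment. Intervals are at 95% and come from the fit's standard errors. The steps were tested on simulated data. The labels do not say that libraries come from separate mice, so p-values measure the spread between libraries. The members, lists, tests and the replicate sets (1 and 2, 3 to 6) were chosen with earlier results of these data known. Named genes are the members, called genes and up to 4 genes of smallest p per list, some given only in counts, and the 8 most or least like Odc1. Myc, also named, was chosen after its values were seen. Alternatives were DESeq2 1.42.0, limma 3.58.1 on voom weights or log2(FPKM + 0.1 or 1), other size factors, filters and sample sets, the replicate number as a block, and leaving out each library.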

Additional observations from a re-analysis of the deposited data

Results flagged for a closer look

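Within a diet, 1 library lay far from the other 5 for 2 of the 30 combinations of member and diet examined, where chance gives about 5%. Oaz1 in ND replicate 5 was at 516.1 CPM, and the next highest ND library at 470.2 CPM. Without it, the log2 fold change of Oaz1 was 0.04 in HFD against ND and -0.06 in SW against ND, and neither passed the test. Oaz2 in SW replicate 4 was at 33.8 CPM, and the next highest SW library at 27.9 CPM. Without it, the log2 fold change of Oaz2 in SW against ND was -0.13 and did not pass.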

How the results depend on the processing

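Smox and Paox had the lowest counts and the widest intervals. For HFD against ND, the count of called genes was 444 with DESeq2, 598 with the replicate number as a block, 535 with the replicate sets as a factor and 5 within replicates 1 and 2 alone, which hold 2 libraries per diet. It ran from 89 to 301 when 1 library was left out (ND 5, 89; ND 3, 109; HFD 6, 117; HFD 2, 127; ND 4, 130; ND 6, 132; HFD 4, 145; HFD 1, 301). Members called were 1 (Amd1) with DESeq2, within replicates 3 to 6 alone and in a fit of HFD and ND only, and 2 (Odc1, Amd1) with the block or the set factor, and 0 to 2 when 1 library was left out, the 2 without HFD 1. With the block, adjusted p was 0.0343 for Odc1 and 0.0041 for Amd1. For SW against ND, 48 genes were called with DESeq2, 49 with the block, 22 with the set factor, 31 with no filter, 19 in a fit of SW and ND only, 5 within replicates 3 to 6, 1 with limma-voom, RLE or library totals, and 0 within replicates 1 and 2 or on FPKM with either pseudocount. Leaving out 1 library gave 0 to 16, the 16 without HFD 1, 6 without SW 1, 5 without ND 6 or HFD 5, 4 without HFD 2, 1 without SW 3 or SW 5, and 0 without ND 1, ND 3, ND 5 or SW 2. With the block 1 member, Azin1, was called there (adjusted p = 0.0342), and 0 when any library was left out. For SW against HFD, 111 genes were called with DESeq2, 138 with the block, 116 with the set factor, 53 with no filter, 5 with limma-voom, 1 on FPKM with either pseudocount, 2 within replicates 1 and 2 and 0 in a fit of SW and HFD only. Leaving out 1 library gave 0 to 44, with 44 without HFD 1, 31 without SW 6, 6 without HFD 3, 4 without ND 5 or HFD 4, 2 without ND 3, and 0 without SW 3, SW 4, SW 5, HFD 2 or HFD 6. Odc1 was not among them (0 members) with limma-voom, on FPKM, within replicates 1 and 2 or in the fit of SW and HFD only, and 0 to 1 members were called when 1 library was left out. The call of Odc1 in SW against HFD chose the group, so its changes are given as a description. The labels do not say whether the replicate numbers pair the libraries. Deviations of same-numbered libraries correlated at -0.03 to 0.22 (median 0.08), over 0.1 in 7 of 18 pairs. For other numbers of the same replicate set the median was 0.04, over 0.1 in 6 of 42 pairs. Between the replicate sets it was -0.07, over 0.1 in 0 of 48 pairs. Whether the numbers mark a pairing was not tested. The block changed no call of a member other than those given. Dusp2 was called with the block in HFD against ND (adjusted p = 0.0352). Signs turned for small differences. In HFD against ND, Oaz1 was -0.0048 with library totals and -0.00040 within replicates 3 to 6, Paox was 0.14 and Myc -0.044 within replicates 1 and 2, and leaving out 1 library gave -0.021 to 0.043 for Oaz1 and -0.16 to 0.0090 for Paox. In SW against ND, Sat1 was -0.061 within replicates 1 and 2, and Smox was -0.073 and Paox -0.0074 within replicates 3 to 6. Leaving out 1 library there gave -0.070 to 0.010 for Sms, -0.034 to 0.092 for Sat1, -0.034 to 0.088 for Smox and -0.012 to 0.15 for Paox. Mat2a was not called on FPKM (adjusted p = 0.0582 and 0.0585) or with no filter (0.117), and Mlx not with no filter (0.0714), within replicates 3 to 6 (0.0903) or in a fit of HFD and ND only (0.0719). The cause of these shifts was not tested.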

Other observations

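Odc1 is a known target of Myc, and the Myc network was listed for that reason. Of 11 tested of 13 genes, 1 was called in HFD against ND, where 1.62% of all genes were, and 0 in SW against ND, where 0.0146% were. The medians were -0.03 in HFD and -0.01 in SW. The gene called was Mlx, a partner of the Mondo transcription factors that sense glucose. It ran from 43.7 over 46.3 to 47.1 CPM in SW, from 38.2 over 45.3 to 46.8 CPM in HFD and from 46.1 over 52.4 to 54.5 CPM in ND. Its log2 fold change was -0.23 ± 0.06 in HFD against ND (adjusted p = 0.0428, edgeR), with 6 of 6 HFD libraries below the ND mean, and it was called in 10 of 18 fits that left out a library. In SW against ND it was -0.17 ± 0.06 (adjusted p = 0.461), also with 6 of 6 libraries below the ND mean. Myc itself averaged 145 ± 10.2 CPM in SW, 154 ± 17.6 CPM in HFD and 142 ± 11.5 CPM in ND, with a log2 fold change of 0.11 in HFD against ND (adjusted p = 0.466).

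Genes that mark activation and division were listed beside the pathway. None of 23 tested immediate early genes and none of 30 proliferation genes was called in either comparison with ND by edgeR. Unadjusted p was under 0.05 for 3 immediate early genes in SW and 5 in HFD, and for 2 proliferation genes in SW and 5 in HFD. Among all genes, 6.81% had such a p in SW against ND and 14.9% in HFD against ND. DESeq2 called 1 gene of these lists, Pcna in SW, where it called 48 of all genes. In HFD against ND, 25 of 30 proliferation genes had positive fold changes, with a median of 0.18 beside 0.01 for all genes. In SW against ND 10 of 30 did, with a median of -0.03 beside 0.00 for all genes. Bub1b, a mitotic checkpoint kinase, averaged 4.71 ± 1.32 CPM in SW, 7.20 ± 2.32 CPM in HFD and 4.63 ± 0.69 CPM in ND, with 0.63 ± 0.19 in HFD against ND (adjusted p = 0.0945). The immediate early genes had medians of 0.10 in HFD and -0.10 in SW, with 14 and 8 of 23 above 0. In HFD against ND, Fosl2 and Egr2 were lower, at -0.28 ± 0.10 (adjusted p = 0.179) and -0.29 ± 0.12 (adjusted p = 0.237). Klf2 was higher, at 0.31 ± 0.11 (adjusted p = 0.176). Dusp2, a phosphatase gene induced by receptor signalling, spread from 186 to 602 CPM over the HFD libraries, against 198 to 337 CPM in ND, with 0.69 ± 0.23 in HFD against ND (adjusted p = 0.163). Its adjusted p was 0.0242 within replicates 3 to 6 and 0.0109 without HFD 1, and it did not pass with the replicate sets as a factor (0.0771), DESeq2 (0.0746), limma-voom (0.254) or within replicates 1 and 2 (0.864).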
